A study of Mus musculus with 27 samples.

Results

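Acod1, Vnn1 and Vnn3 encode an enzyme that makes itaconate and a pair of pantetheinases. They were followed through the messenger RNA of mouse endothelial cells (EC) and mouse peritoneal macrophages (PMAC) as 3 of the 55291 genes in the deposited tables. The 3 genes were chosen with earlier results of these same libraries in view, from their levels over all EC and PMAC groups, and were thus selected on the very levels and differences given below, so every value given for them is a description and carries no test. Each cell type was sequenced in 3 groups, labelled control, chylomicron-treated and SRBI knockdown, with 3 libraries in each group and 18 libraries in all. SRBI, the scavenger receptor class B type I, is a lipoprotein receptor encoded by Scarb1, and chylomicrons are the lipoprotein particles in which the intestine releases absorbed fat. The title of the series concerns vesicles that such treated endothelial cells release and their effect on macrophage inflammation. The labels gave no strain, age, dose, time or knockdown method. They did not state in which cells SRBI was knocked down, whether knockdown libraries also received chylomicrons, or whether macrophages received chylomicrons or material from treated endothelial cells. The extraction protocol speaks of murine cell lines called PL and PLA, without tying either name to a group.

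Acod1, cis-aconitate decarboxylase 1, sits in mitochondria of activated macrophages and turns cis-aconitate, an intermediate of the tricarboxylic acid (TCA) cycle, into itaconate. Itaconate inhibits succinate dehydrogenase and modifies proteins of the inflammatory and antioxidant responses. The vanins Vnn1 and Vnn3 split pantetheine, a breakdown product of coenzyme A, into pantothenate, from which coenzyme A is rebuilt, and cysteamine, an aminothiol. Vnn1 is anchored to the cell surface by a lipid.

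In the RefSeq annotation of GRCm38.p6, Acod1 spans chromosome 14 from 103047012 to 103056573. A predicted gene, Gm41235, overlaps it, and whether the counting used strand was not given in the sources used here. Vnn3 (chromosome 10, 23851462 to 23869843) and Vnn1 (chromosome 10, 23894688 to 23905344) are neighbours, separated by 24844 bases with 0 annotated genes between them. RefSeq promoter sequences were matched by symbol for 2 of the 3 genes and are shown because Acod1 and Vnn3 were the members with high levels in macrophages. Each window runs from 250 bases before to 50 bases after the start of the gene, on the plus strand, at chr14:103046762-103047061 for Acod1 and chr10:23851212-23851511 for Vnn3. Capitals mark matches to the motifs searched.
Acod1: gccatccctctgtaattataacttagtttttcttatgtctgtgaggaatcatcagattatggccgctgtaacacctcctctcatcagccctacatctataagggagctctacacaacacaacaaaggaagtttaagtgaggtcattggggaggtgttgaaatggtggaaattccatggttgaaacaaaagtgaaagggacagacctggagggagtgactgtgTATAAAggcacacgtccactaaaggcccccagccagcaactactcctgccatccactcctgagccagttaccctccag
Vnn3: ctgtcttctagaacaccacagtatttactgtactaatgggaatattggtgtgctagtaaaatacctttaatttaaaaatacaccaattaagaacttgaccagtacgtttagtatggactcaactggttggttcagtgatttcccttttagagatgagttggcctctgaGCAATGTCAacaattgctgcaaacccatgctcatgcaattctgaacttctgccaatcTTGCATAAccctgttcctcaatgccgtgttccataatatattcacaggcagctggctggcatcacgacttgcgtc
In all, 6 short motifs were searched on both strands. The Acod1 window held the TATA box letters TATAAA at positions -28 to -23, counted with the first base of the gene as position 1 and with no position 0, and 13.6% of 32851 promoters of the same length held those letters. The Vnn3 window held the C/EBP letters TTGCNNAA, as TTGCATAA at -25 to -18, which 10.8% of promoters held. It also held the antioxidant response letters TGACNNNGC on the other strand, read here as GCAATGTCA at -82 to -74, which 12.4% of promoters held. The letters for NF-kB (in 1.63% of promoters), interferon regulatory factors (in 3.44%) and AP-1 (TGANTCA, in 7.81%) matched neither window. Each motif was searched as a fixed string of letters, so sites with other spellings would have been missed. A window without a match may thus still hold a site for NF-kB, interferon regulatory factors or AP-1. Near matches were not searched. The marked matches do not overlap each other.

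Recovered reads assigned to genes numbered 40046820 to 46700757 per EC control or chylomicron library, 30547284 to 55874954 per PMAC library and 16758727 to 20715157 per EC SRBI knockdown library, a group held in a separate table. Levels across tables are therefore given as reads scaled to a total of 1000000 assigned reads per library (RPM). Within a table the unit is the normalized count that the authors deposited. Endothelial markers summed to 927 to 1021 RPM in EC controls, 749 to 940 with chylomicrons and 239 to 261 in the EC SRBI knockdown libraries, against 0.528 to 1.72 in all PMAC libraries. The endothelial tight junction gene Cldn5 was at 0 to 0.187 RPM in EC controls and EC with chylomicrons and at 0 in EC SRBI knockdown, near 0 in all 9 EC libraries. Fibroblast and mural markers summed to more than endothelial markers in all 9 EC libraries. Their sums were 1909 to 2245 RPM in EC controls, 2308 to 2430 with chylomicrons and 3438 to 3510 with SRBI knockdown. Which cells in the EC libraries carried the vanin reads was not tested. Macrophage markers summed to 48747 to 51432 RPM in PMAC controls. Their sum was 29844 to 32143 RPM in PMAC with chylomicrons and 33774 to 37531 in PMAC with SRBI knockdown, with all 12 markers detected. Most of that sum was Lyz2, at 39815 to 41982 RPM in controls, 21163 to 23010 with chylomicrons and 25194 to 28692 with SRBI knockdown. Adgre1 was at 3353 to 3472, 3117 to 3362 and 3471 to 3585 RPM in the same order, and Cd14 was higher in both, at 415 to 474, 1272 to 1357 and 931 to 1024 RPM. Itgam was also higher in both, at 601 to 650, 663 to 703 and 832 to 904 RPM. Csf1r was lower in both, at 1927 to 2128, 1150 to 1248 and 1164 to 1237 RPM. So were Mertk (79.4 to 93.3, 37.8 to 43.3 and 36.2 to 38.5), C1qa (198 to 292, 139 to 157 and 119 to 152) and C1qb. Cd68, C1qc, Fcgr1 and Tyrobp overlapped between controls and chylomicrons. Scarb1, the labelled target, averaged 281 ± 26.7 RPM (SD, n = 3) in EC controls and 117 ± 3.14 in EC SRBI knockdown. In PMAC it averaged 58.9 ± 1.47 in controls and 46.6 ± 4.11 with SRBI knockdown, and 40.3 ± 2.87 in the chylomicron group. For Scarb1 the PMAC chylomicron and SRBI knockdown groups overlapped in normalized counts, at 1571 to 1832 and 1770 to 2149. In RPM they did not overlap, at 37.1 to 42.4 and 43.2 to 51.2. Their difference in normalized counts did not pass (adjusted p = 0.163, limma). The PMAC knockdown difference (adjusted p = 0.0127, limma) did not pass without SRBI knockdown replicate 1 (adjusted p = 0.0559) or replicate 2 (adjusted p = 0.0812). Nothing in the labels says that libraries of a group came from separate cultures or animals, so the spread between them may be technical. In bulk RNA, fewer cells of a type and less RNA per cell cannot be told apart.

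Acod1 was a macrophage transcript in these libraries. Its 9 PMAC libraries lay between 1081 and 1737 RPM. Its 9 EC libraries lay between 0 and 0.334 RPM, which is 0 to 14 reads. Among EC groups the Acod1 reads were 12, 5 and 0 in controls, 14, 0 and 3 with chylomicrons, and 6, 0 and 1 with SRBI knockdown. These 3 groups overlapped, and at 0 to 14 reads no difference among them was detectable. A number of 3 reads, the limit that a count of 0 allows, corresponds to 0.0642 to 0.179 RPM in the EC libraries. That floor covers counting error only, since the reads carry no molecular identifiers.

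Vnn1 had the opposite distribution. Its 9 EC libraries lay between 7.13 and 149 RPM, and its 9 PMAC libraries lay between 0 and 0.276 RPM, or 0 to 12 reads. PMAC Vnn1 reads were 0, 12 and 2 in controls, 6, 0 and 1 with chylomicrons, and 0, 1 and 0 with SRBI knockdown, so the PMAC groups overlapped. The lowest EC control library stood 25.9 times above the highest PMAC control library.

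Vnn3 had at least 1 read in all 18 libraries. EC control replicate 1 held 1 read, or 0.0236 RPM, which is below the floor of 3 reads. In descending order its mean levels were 177 ± 8.56 RPM (SD, n = 3) in PMAC with chylomicrons, 150.3 ± 4.34 in PMAC with SRBI knockdown and 14.1 ± 1.13 in PMAC controls. They continued with 5.57 ± 1.21 RPM in EC SRBI knockdown, 1.08 ± 0.362 in EC with chylomicrons and 0.172 ± 0.139 in EC controls. No neighbouring groups in that order overlapped. For Acod1 the order was PMAC with chylomicrons, PMAC with SRBI knockdown, PMAC control, and then the EC groups together. For Vnn1 it was EC SRBI knockdown, EC with chylomicrons, EC control, and then the PMAC groups together. Levels of different genes are not compared here, since RPM does not correct for transcript length.

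**Figure D1:**
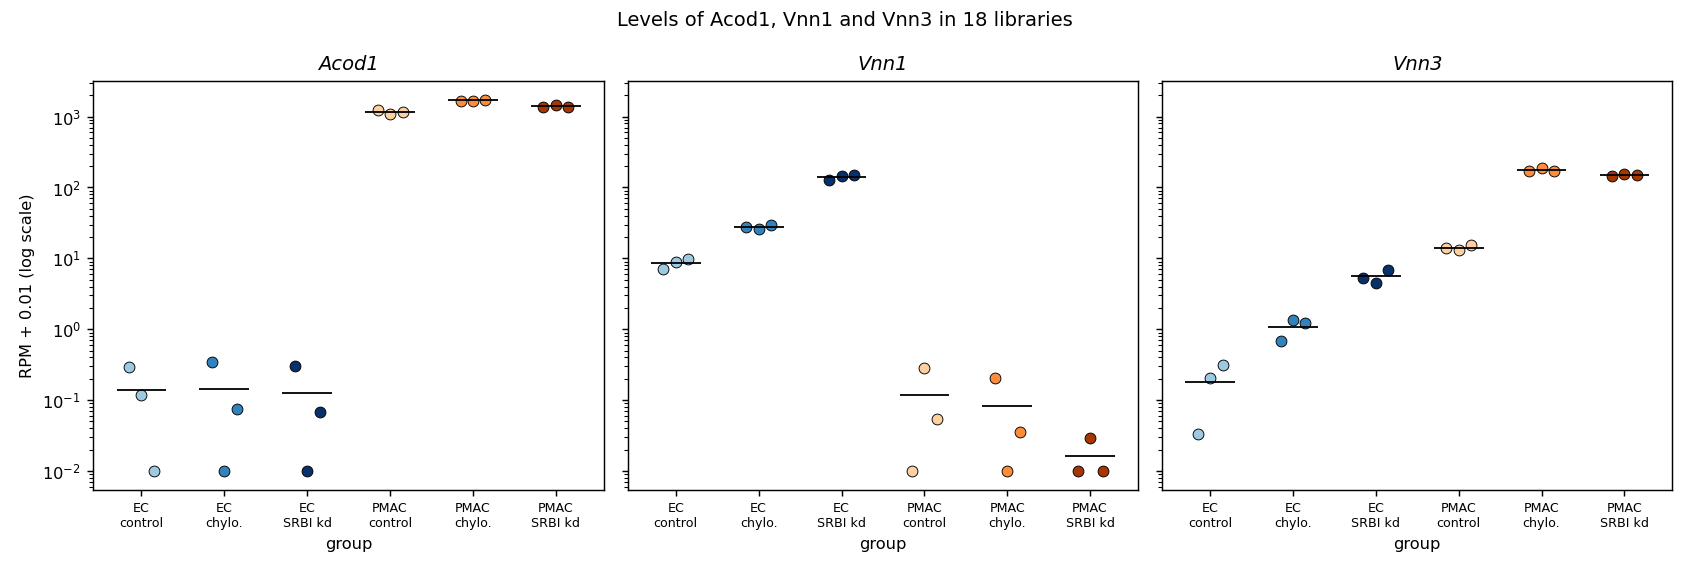
Levels of Acod1, Vnn1 and Vnn3 in all 18 libraries, as RPM plus 0.01 on a log axis, with a point for each library and a line at the mean of each group of 3. The Acod1 points of PMAC lie at 1081 RPM or above and those of EC at 0.334 or below, Vnn1 shows the reverse placement, and the 6 groups of Vnn3 form separate steps.

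The comparison of PMAC libraries labelled chylomicron-treated with PMAC controls asked which transcripts differed between those labels. What the macrophages received was not stated. Acod1 had 48149, 42527 and 45619 normalized counts in the PMAC control libraries and 70618, 71783 and 72505 in the chylomicron libraries. Every chylomicron library was above every control library. The means were 45432 ± 2816 and 71635 ± 952 (SD, n = 3), a ratio of 1.58 and a difference of 0.66 on the log2(normalized count + 1) scale (SE 0.05). The gap between the groups, from 48149 to 70618, was several times the spread within either group.

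Vnn3 differed far more. It had 551, 513 and 595 normalized counts in PMAC controls and 7250, 8083 and 7245 with chylomicrons. The lowest chylomicron library was 12.2 times the highest control library. The means were 553 ± 40.7 and 7526 ± 483, a ratio of 13.6 and a log2 difference of 3.77 (SE 0.08). Acod1 and Vnn3, the 2 of 3 members with a mean of at least 10 in the PMAC table, were both higher without overlap, as were 20.6% of the 13630 genes tested. That share is the background only, since these values chose the members. With columns rescaled to equal totals, which moves the median of all genes from -0.01 to -0.13 on the log2 scale, the differences were 0.54 for Acod1 and 3.65 for Vnn3.

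In PMAC with SRBI knockdown, Acod1 had 55830, 60332 and 57144 normalized counts. These 3 libraries lay above all controls and below all chylomicron libraries. The mean of 57769 ± 2315 was 1.27 times the control mean, a log2 difference of 0.35 (SE 0.06), and 0.806 times the chylomicron mean, a log2 difference of -0.31 (SE 0.03).

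Vnn3 with SRBI knockdown had 6021, 6321 and 6338 normalized counts, again between the other groups without overlap. The mean of 6227 ± 178 was 11.3 times the control mean, a log2 difference of 3.49 (SE 0.07), and 0.827 times the chylomicron mean, a log2 difference of -0.27 (SE 0.06). In proportion, both genes stood lower than in the chylomicron group by similar amounts, while their distances from control differed widely. Across all genes tested, 23.2% were higher in SRBI knockdown than in control without overlap and 13.6% were lower than in chylomicron without overlap. Both contrasts against control use the same 3 control libraries. Vnn1 was below the mean of 10 and is not compared in PMAC. In the PMAC libraries with 5256 to 8433 Vnn3 reads, Vnn1 held 0 to 6 reads.

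**Figure D2:**
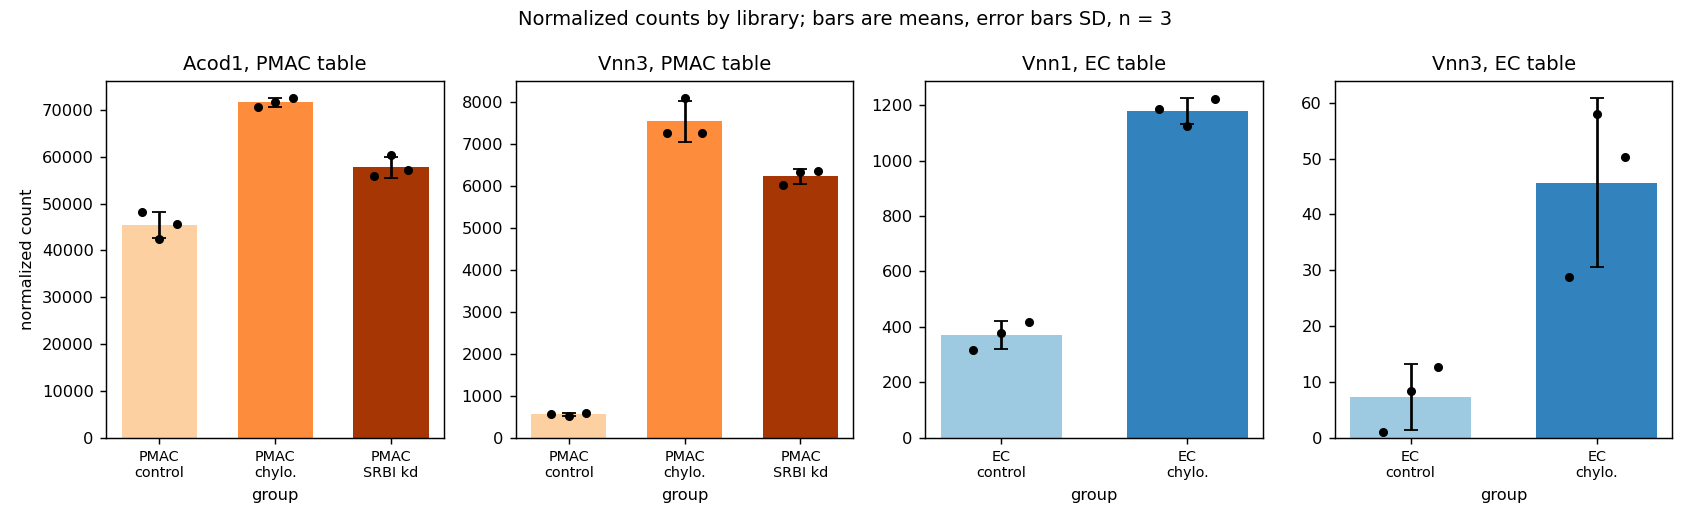
Normalized counts of Acod1 and Vnn3 in the PMAC table and of Vnn1 and Vnn3 in the EC table, each on its own linear axis from 0, with points for libraries, bars for means and error bars for the SD of 3 libraries. SRBI knockdown lies between control and chylomicron for Acod1 (57769) and Vnn3 (6227), and both vanins are higher with chylomicrons in EC.

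In the same PMAC libraries, the neutrophil marker sum was 391 to 446 RPM in controls, 350 to 377 with chylomicrons and 801 to 940 with SRBI knockdown. Mmp8 made up most of it. Of the other listed genes, S100a8 was at 63.5 to 74.1 RPM and Camp at 1.96 to 4.03 RPM over the PMAC libraries. Ngp was at 0 to 0.0179 RPM, and Ly6g, S100a9, Elane and Retnlg were at 0 in all 3 groups. Within the macrophage list, Cd14, a co-receptor for lipopolysaccharide, lay at 415 to 474 RPM in controls, 1272 to 1357 with chylomicrons and 931 to 1024 with SRBI knockdown. Itgam was also higher in both, whereas the lysozyme gene Lyz2, Csf1r, Mertk, C1qa and C1qb were lower in both. The part of these marker levels in the Acod1 and Vnn3 values was not tested.

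In the EC libraries the vanins were the detected members. Vnn1 had 315, 379 and 417 normalized counts in EC controls and 1187, 1126 and 1220 with chylomicrons. The groups were far apart, with the lowest chylomicron library at 1126 and the highest control at 417. The means were 370.4 ± 51.7 and 1178 ± 47.7 (SD, n = 3), a ratio of 3.18 and a log2 difference of 1.67 (SE 0.12).

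Vnn3 was scarce in EC. It had 1, 9 and 12 reads in the controls and 28, 58 and 55 with chylomicrons. The normalized counts averaged 7.36 ± 5.90 and 45.7 ± 15.2, a ratio of 6.21 without overlap. The log2 difference of 2.81 (SE 0.89) fell to 1.99 without EC control replicate 1, the library with 1 read, and was 3.36 without EC control replicate 3. Vnn3 passed the mean of 10 only through its chylomicron libraries. Vnn1 and Vnn3 were both higher without overlap, beside 13.1% of the 15595 genes tested in EC, and these values also chose the members.

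The EC SRBI knockdown libraries held the highest EC levels of both vanins. Vnn1 was at 128, 143 and 149 RPM there, against 7.13, 8.82 and 9.81 in EC controls and 27.6, 26.3 and 29.3 with chylomicrons. The mean of 139.9 ± 10.6 RPM was 16.3 times the control mean and 5.04 times the chylomicron mean. Vnn3 was at 5.36, 4.48 and 6.87 RPM, from 111, 75 and 117 reads. Its mean was 5.17 times that of EC with chylomicrons, whose libraries lay at 0.668, 1.36 and 1.21 RPM. All 3 knockdown libraries lay above all 6 other EC libraries. The share of all genes that did so was not counted.

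These EC SRBI knockdown libraries were deposited in a table of their own with no controls in it and were sequenced less deeply, so no test was made, and table and knockdown cannot be told apart. They also differed in markers. The mesothelial sum was 419 to 462 RPM, mostly the keratin gene Krt19, against 22.4 to 27.9 in the other EC libraries. The fibroblast and mural sum was 3438 to 3510 RPM against 1909 to 2430, and the endothelial sum was lower as given above. Macrophage markers summed to 32.1 to 32.9 RPM, with Adgre1, C1qa and Tyrobp at 0, against 57.7 to 73.3 in the other EC libraries, where Mertk made up most of the sum. The part of these marker differences in the vanin levels was not tested.

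Genes around the members were read for comparison, as the nearest 3 protein-coding genes on each side. Next to the vanins, Slc18b1, 23492 bases from Vnn3, had log2 changes of 0.10 in EC and -1.18 in PMAC with chylomicrons, and neither passed (adjusted p = 0.721 and 0.241). The ribosomal protein gene Rps12 had a change of 0.02 in PMAC with chylomicrons (adjusted p = 0.883), and Eya4 did not pass in any of the 4 contrasts. The trace amine receptor genes Taar1, Taar2 and Taar3 on the other side had 0 reads in every library. Next to Acod1, Kctd12, 64374 bases away, fell by 0.34 in PMAC with chylomicrons (adjusted p = 1.38e-04). Mycbp2, 56837 bases away, rose by 0.28 (adjusted p = 0.00343, from 4.09e-04 to 0.0837 over 16 settings). Neighbours of Acod1 thus went both ways. Kctd12 also fell in EC with chylomicrons, by 0.67 (adjusted p = 0.00374).

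Profiles over the 9 PMAC libraries were compared among 9850 genes by the root mean square of the difference in centred log2 values. The genes most like Acod1 were Zwint, at 0.037, the granulocyte colony-stimulating factor receptor gene Csf3r, at 0.040, Prag1, Fam49a and Rdh11, at 0.053. Csf3r averaged 7551 ± 371, 11876 ± 344 and 9239 ± 423 normalized counts in control, chylomicron and SRBI knockdown, the same order as Acod1. The genes most like Vnn3 were Il1a, which encodes the cytokine interleukin 1 alpha, at 0.14, the cytokine signalling inhibitor gene Cish, at 0.18, and the neutrophil-attracting chemokine gene Cxcl1, at 0.20. Nrg1 and Ctla2a, at 0.24 and 0.26, completed the 5. Il1a averaged 18475 ± 2231 normalized counts in control, 204180 ± 6066 with chylomicrons and 186799 ± 6893 with SRBI knockdown. All 5 shared with Vnn3 a step of 3.45 to 4.22 on the log2 scale from control to chylomicron. These genes were picked for their small difference from Acod1 or Vnn3 over these same 9 libraries. The shared step and the shared order follow from that choice. The libraries compared are the same for every gene, and the likeness is a description.

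**Figure D3:**
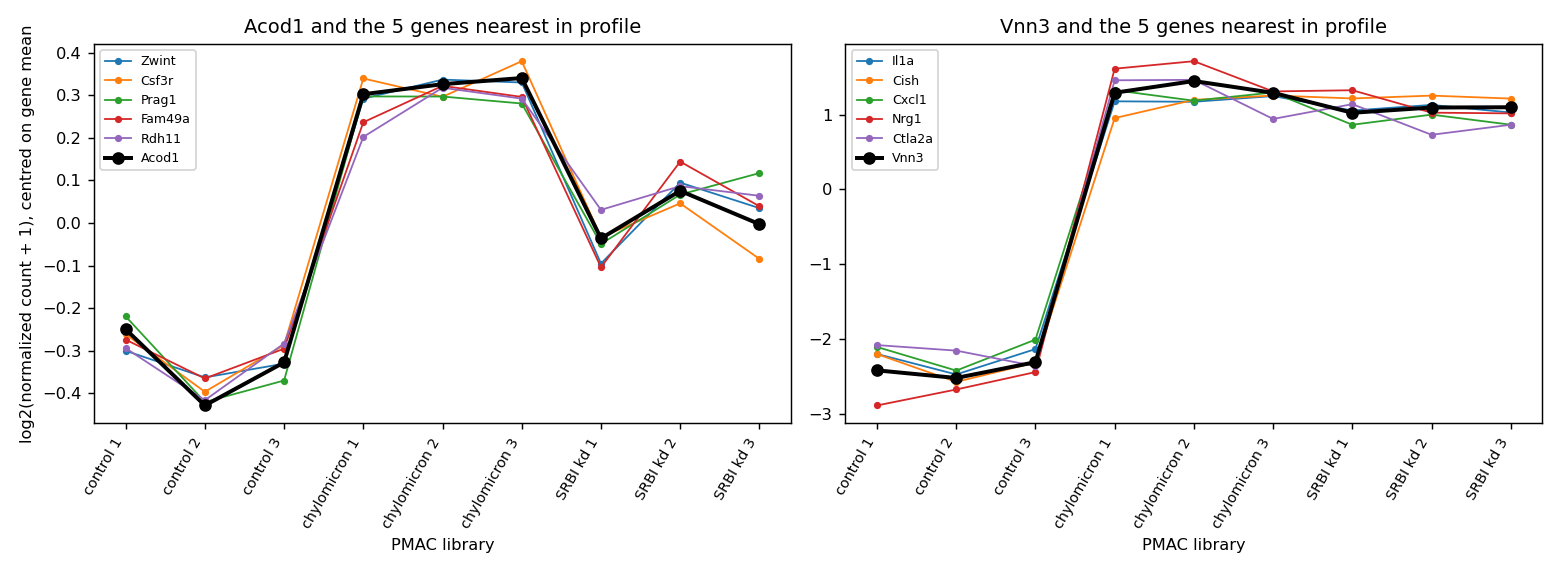
Profiles of Acod1 (left) and Vnn3 (right), in black, with the 5 nearest genes each, over the 9 PMAC libraries, as log2(normalized count + 1) centred on the mean of each gene. Acod1 shows 3 levels, with SRBI knockdown between the other groups, and Vnn3 shows low controls with both other groups high.

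The reaction of Acod1 draws on the TCA cycle, and a list of genes of that cycle and of itaconate handling was read beside it. In PMAC with chylomicrons, 16 of 29 measured genes of the TCA cycle and itaconate handling list fell and 0 rose by limma, beside 17.4% of all genes tested that fell and 16% that rose. At an unadjusted p under 0.05 the number that rose was also 0, as it was by edgeR and DESeq2. The median log2 change of the list was -0.24, against -0.01 over all genes. Of the 18 TCA cycle enzymes, 9 fell. Idh1, the cytosolic isocitrate dehydrogenase, fell by 0.75 (SE 0.05, adjusted p = 4.62e-09), and its mitochondrial counterpart Idh2 fell by 0.67 (SE 0.07, adjusted p = 7.70e-07). The succinyl-CoA ligase subunit gene Suclg1 fell by 0.44 (adjusted p = 1.69e-05), the malate dehydrogenase gene Mdh1 by 0.39 (adjusted p = 1.67e-05) and the oxoglutarate dehydrogenase gene Ogdh by 0.31 (adjusted p = 3.23e-05). Sdha, the catalytic subunit of the succinate dehydrogenase that itaconate inhibits, fell from 7253 ± 140 to 5629 ± 214 normalized counts, by 0.37 (adjusted p = 1.11e-05).

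Genes that act on itaconate itself were few and weakly expressed, and they are named here after their values were seen. Clybl, whose product clears citramalyl-CoA in the breakdown of itaconate, fell by 0.69 in PMAC with chylomicrons (adjusted p = 0.00177). Abcg2, an efflux transporter reported to export itaconate, fell by 1.03 (adjusted p = 0.00215). Slc13a3, a dicarboxylate transporter reported to carry itaconate in human cells, fell by 2.03 (adjusted p = 9.37e-04). Sugct and the itaconate receptor gene Oxgr1 were below the mean of 10.

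In PMAC with SRBI knockdown against control, 21 of the 29 fell and 0 rose by limma, beside 15.5% and 14.7% of all genes, with a median of -0.25 against 0.01. Again 0 rose at an unadjusted p under 0.05, by edgeR or by DESeq2. Among the TCA cycle enzymes 15 of 18 fell. Mdh1 fell by 0.67 (adjusted p = 2.57e-08), Idh2 by 0.61 (adjusted p = 2.47e-06), Suclg1 by 0.50 (adjusted p = 4.65e-06), Idh1 by 0.42 (adjusted p = 6.79e-06), Sdha by 0.36 (adjusted p = 1.41e-05) and Idh3b by 0.32 (adjusted p = 7.56e-05). Against chylomicron directly, 2 of 29 were higher and 1 lower, beside 5.6% and 5.59% of all genes. Idh1 was higher in SRBI knockdown by 0.33 (adjusted p = 5.19e-04) and Mdh1 fell by 0.28 (adjusted p = 0.00232). The ATP citrate lyase gene Acly, at 0.17 (adjusted p = 0.0364), did not pass without SRBI knockdown replicate 1, 2 or 3 (adjusted p = 0.116, 0.0604 and 0.106) or chylomicron replicate 1 or 3 (adjusted p = 0.116 and 0.102). In EC with chylomicrons, 1 of 29 rose and 0 fell by limma, beside 5.16% and 3.28% of all genes, and 0 fell at an unadjusted p under 0.05, by edgeR or by DESeq2. The gene that rose was the dicarboxylate carrier Slc25a10, at 0.55 (adjusted p = 0.00352, or 0.0549 when the variance prior had no trend). Acod1 itself was at 0 to 14 reads in those EC libraries.

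**Figure D4:**
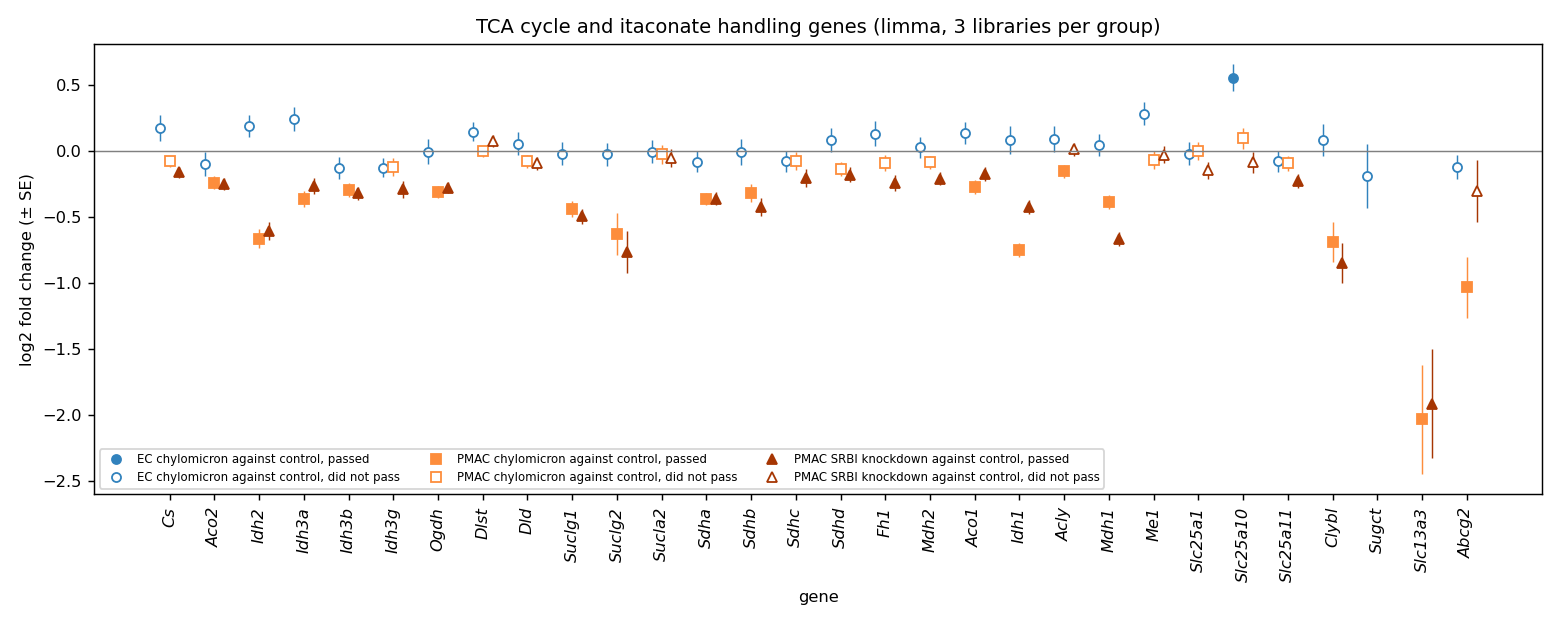
Log2 fold changes (± SE) of the measured TCA cycle and itaconate handling genes in EC with chylomicrons, PMAC with chylomicrons and PMAC with SRBI knockdown, each against control, with filled symbols for genes that passed the test. The PMAC symbols that passed all lie below 0 and the EC symbols scatter around it, with Slc25a10 at 0.55 as the EC gene that passed.

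Vanin activity yields pantothenate and cysteamine, and a list of coenzyme A, cysteamine and glutathione genes was read beside the vanins. Its coenzyme A hydrolysis and glutathione genes are related to these products but are not their users. In PMAC with chylomicrons, 2 of 26 measured members rose and 9 fell by limma, with a median of -0.19 against -0.01 over all genes. Over all genes tested 16% rose and 17.4% fell. Both that rose encode chains of the cystine and glutamate exchanger. Slc7a11 rose from 93070.1 ± 6626 to 127388 ± 6195 normalized counts, by 0.45 (adjusted p = 1.95e-05), and Slc3a2 rose by 0.55 (adjusted p = 1.04e-07). Ggt5, a gamma-glutamyl transferase, fell by 1.75 (adjusted p = 1.28e-07), the coenzyme A hydrolase gene Nudt19 by 0.86 (adjusted p = 7.99e-07), the taurine transporter gene Slc6a6 by 0.51 (adjusted p = 1.43e-07) and the glutathione reductase gene Gsr by 0.23 (adjusted p = 2.60e-04). Among the 7 genes of coenzyme A synthesis 1 fell, Coasy, at -0.30 (adjusted p = 0.00676), named after its value was seen.

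In PMAC with SRBI knockdown against control, again 2 of 26 rose and 9 fell, against 14.7% and 15.5% of all genes tested. Slc7a11 rose by 0.60 (adjusted p = 8.13e-07) and Slc3a2 by 0.53 (adjusted p = 2.06e-07). Ggt5 fell by 2.59 (adjusted p = 8.07e-10), Nudt19 by 0.70 (adjusted p = 1.10e-05), the glutathione synthetase gene Gss by 0.46 (adjusted p = 9.71e-05) and Gsr by 0.26 (adjusted p = 1.19e-04). Against chylomicron, Slc6a6 was higher by 0.27 (adjusted p = 9.50e-04), while Gss fell by 0.36 (adjusted p = 0.00357) and Ggt5 by 0.84 (adjusted p = 0.00226). Without a trend Gss did not pass there (adjusted p = 0.0654). In EC with chylomicrons, where both vanins were higher, 1 of 28 rose and 2 fell, against 5.16% and 3.28% of all genes tested. Slc7a11 rose by 0.72 (adjusted p = 0.00296), the coenzyme A hydrolase gene Nudt7 fell by 0.62 (adjusted p = 0.00104) and Fmo1, whose flavin monooxygenase product makes taurine from hypotaurine, fell by 0.90 (adjusted p = 0.00856). Without a trend Slc7a11 and Fmo1 did not pass in EC (adjusted p = 0.0571 and 0.0833).

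**Figure D5:**
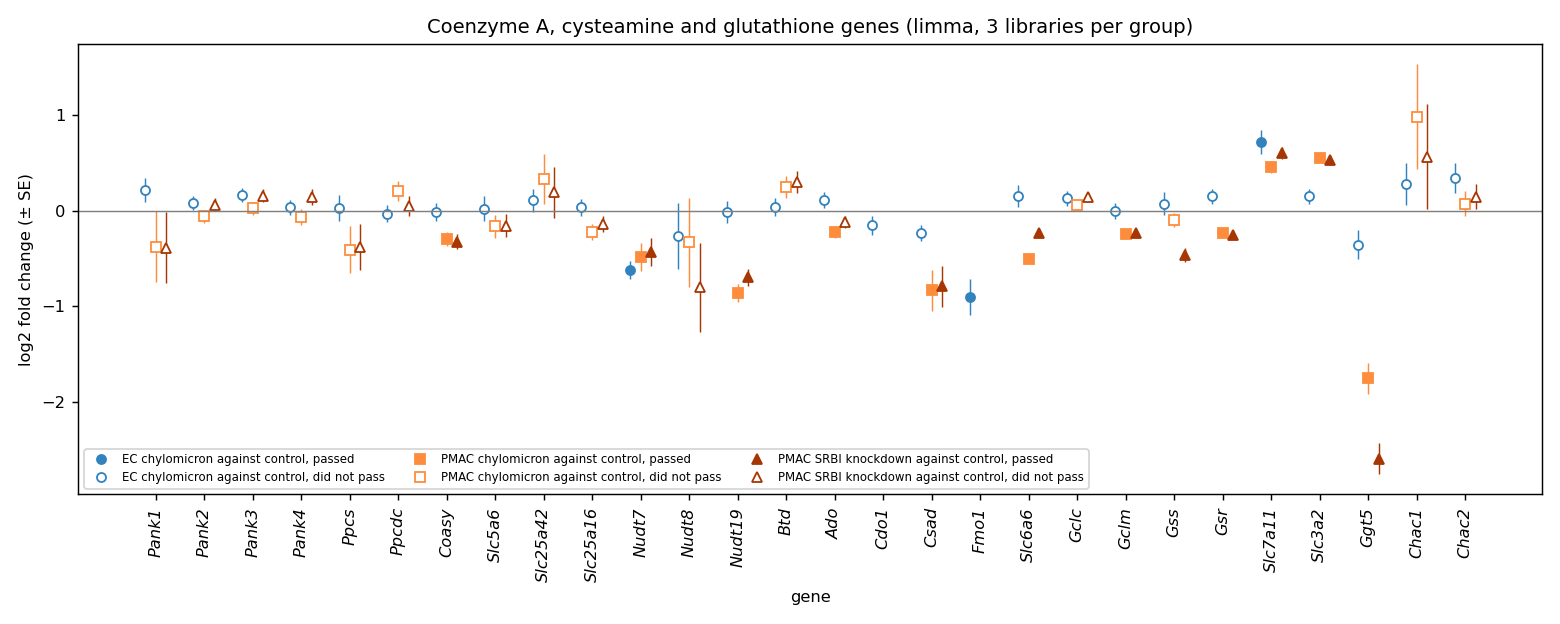
Log2 fold changes (± SE) of the measured coenzyme A, cysteamine and glutathione genes in the same 3 contrasts, with filled symbols for genes that passed the test. Slc7a11 lies above 0 in all 3 contrasts and Ggt5 is lowest, at -1.75 and -2.59 in the PMAC contrasts.

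Regulators reported in other work for Acod1 or the vanins were listed as 11 genes, all measured. In PMAC with chylomicrons 5 rose and 3 fell, against 16% and 17.4% of all genes tested. The NF-kB subunit gene Nfkb1 rose by 0.51 (adjusted p = 5.74e-08), Ppard, a fatty acid sensing nuclear receptor, by 0.48 (adjusted p = 6.79e-06) and Hif1a, the hypoxia factor, by 0.38 (adjusted p = 2.90e-05). Tfeb, a regulator of lysosomal genes, fell by 0.55 (adjusted p = 1.21e-04). Cebpb, at 0.33 (adjusted p = 0.0115), overlapped between the groups and did not pass without chylomicron replicate 2, control replicate 2 or control replicate 3 (adjusted p = 0.0617, 0.0715 and 0.0576). The count of 8 fell to 5 without control replicate 2 or 3.

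With SRBI knockdown against control, 4 of the 11 rose and 4 fell in PMAC, against 14.7% and 15.5% of all genes tested. Hif1a rose by 0.55 (adjusted p = 5.35e-07), Cebpb by 0.52 (adjusted p = 3.46e-04), Nfkb1 by 0.44 (adjusted p = 3.44e-07) and Ppard by 0.41 (adjusted p = 4.78e-05), and Tfeb fell by 0.49 (adjusted p = 4.49e-04). Against chylomicron, 2 of 11 fell and 0 rose by limma, while 1 rose at an unadjusted p under 0.05, 0 by edgeR and 1 by DESeq2. Over all genes tested 5.6% rose and 5.59% fell. Irf1, an interferon regulatory factor, fell by 0.33 (adjusted p = 0.00567). Rela fell by 0.21 (adjusted p = 0.0192) but did not pass without SRBI knockdown replicate 2 (adjusted p = 0.104) or chylomicron replicate 2 (adjusted p = 0.0613). Without a trend neither passed (adjusted p = 0.0798 for Irf1 and 0.0983 for Rela). The count of 2 fell to 1 without SRBI knockdown replicate 2.

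In EC with chylomicrons 4 of the 11 rose and 0 fell by limma, and 0 fell at an unadjusted p under 0.05, by edgeR or by DESeq2. Over all genes tested 5.16% rose and 3.28% fell. Cebpb rose from 369 ± 14.8 to 787 ± 50.4 normalized counts, by 1.09 (SE 0.10, adjusted p = 3.49e-05). Irf1 rose by 0.47 (adjusted p = 0.00347, and 0.0527 without a trend). Hif1a, at 0.31 (adjusted p = 0.0216), and Nfkb1, at 0.34 (adjusted p = 0.0277), did not pass without EC control replicate 1 (adjusted p = 0.116 and 0.125), replicate 2 (0.107 and 0.0859) or replicate 3 (0.100 and 0.132), which left 2 of the 11 called. Nfkb1 also did not pass without EC chylomicron replicate 1 (adjusted p = 0.0770) or replicate 2 (adjusted p = 0.0542).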

How the data were processed

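Messenger RNA of 6 groups of 3 libraries was used, and 9 libraries of miRNA from media were not used here. Per the labels' protocols, libraries were made with a stranded mRNA kit. The submitters' processing notes give the builds mm10 and GRCm38 and the tools STAR 2.7.3a, Subread 1.6.3, featureCounts and bcl2fastq, with no role for each. The values the authors deposited are a signal, gene counts normalized per library, in 3 tables scaled separately. Of the nonzero values 100% were whole reads divided by a factor per library, within 0.05 reads, so whole reads were recovered and divided by their totals to give RPM.

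Values as log2(normalized count + 1) were fitted with limma 3.58.1 in R 4.3.3 (empirical Bayes with trend, two-sided, Benjamini-Hochberg over all genes tested, threshold 0.05) in genes whose mean reached 10. All adjusted p are from limma with n = 3 per group. The EC fit used 6 libraries and the PMAC fit 9. The script was tested on simulated data. Alternatives were other scalings, a pseudocount of 5, no filter, no trend, edgeR 4.0.16 and DESeq2 1.42.0 on the recovered reads, a replicate block and leaving out each library. Of 18 replicate pairs 0 held identical values.

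The members and lists were chosen with earlier results of these data known. Named are the members, Scarb1, up to 6 called members of each list and contrast by smallest p, the 5 genes nearest in profile to Acod1 and Vnn3 (mean of at least 100, predicted models left out) and the 3 nearest genes on each side. Exceptions are stated, and some genes that this rule took are not reported here.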

Additional observations from a re-analysis of the deposited data

Results flagged for a closer look

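The listed genes Idh3a, Gsr and Nfe2l2 had log2 changes of opposite sign with chylomicrons in the 2 cell types, with all 3 treated libraries on 1 side of all 3 controls in EC and on the other side in PMAC. They come from lists of 31, 31 and 11 genes. In EC, 13.1% of all genes tested were higher without overlap, and the share that also separated the other way in PMAC was not counted. The log2 changes in EC and PMAC were 0.24 and -0.36 for Idh3a, a subunit of isocitrate dehydrogenase, and 0.15 and -0.23 for Gsr. They were 0.12 and -0.15 for Nfe2l2, the antioxidant response regulator. The EC changes did not pass (adjusted p = 0.145, 0.366 and 0.484, limma), and the PMAC changes did (adjusted p = 1.60e-04, 2.60e-04 and 0.0303). The difference between cell types was not tested. The PMAC adjusted p of Nfe2l2 ranged from 5.39e-04 to 0.163 over 16 settings.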

How the results depend on the processing

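The differences of Vnn1 and Vnn3 in EC and of Acod1 and Vnn3 in PMAC kept their direction under all alternatives run. This is a description, since these values chose the members. Their groups do not overlap, so leaving out 1 library could not have reversed a direction. With equal column totals the PMAC log2 differences moved to 0.54 (Acod1) and 3.65 (Vnn3) with chylomicrons and 0.27 (Acod1) with SRBI knockdown, and TCA list genes called with chylomicrons went from 16 to 25. That scaling also moved the split of calls, to 1307 higher and 3766 lower from 2178 and 2372 for PMAC chylomicron, 1372 and 3022 from 1998 and 2111 for SRBI knockdown against control, and 1028 and 581 from 763 and 762 for SRBI knockdown against chylomicron. Without a trend, EC calls fell from 1317 to 587, the EC list counts to 0 (TCA), 1 (coenzyme A) and 1 (regulators), PMAC chylomicron regulators from 8 to 4, SRBI knockdown against chylomicron from 1525 to 602 genes and its regulators to 0. DESeq2 called 2 TCA genes in EC. Leaving out 1 library gave 744 to 1549 EC calls (744 without EC control replicate 1, 803 without replicate 2), 2 to 5 EC regulators, 5 to 8 regulators in PMAC chylomicron, 822 to 1798 genes in SRBI knockdown against chylomicron (822 without SRBI knockdown replicate 1, 937 without replicate 2) and 1 to 3 regulators there. The cause of these shifts was not tested. Same-number libraries of different groups correlated at -0.16 to 0.17 in EC and -0.10 to 0.07 in PMAC. Different-number libraries correlated at -0.40 to 0.32 and -0.04 to 0.11. These correlations use deviations from means of 3 libraries, which sum to 0 in each group. They therefore cannot settle whether replicate numbers pair the libraries. A replicate block called 1581, 4270, 3844 and 1251 genes in the 4 contrasts, against 1317, 4550, 4109 and 1525 without it. The order is EC, PMAC chylomicron, PMAC SRBI knockdown and SRBI knockdown against chylomicron. In that order edgeR on the recovered reads called 1301, 4489, 4238 and 1561. EC SRBI knockdown vanin levels, rescaled by median-of-ratios over 9 EC libraries, a choice made after seeing the data, gave log2 differences from control of 3.97 (Vnn1) and 5.56 (Vnn3), against 4.04 and 5.63. Of all pairs of a summary value and an alternative, 336 stayed close to the value reported and 22 moved, and of those for single genes 792 kept direction and call, 38 lost the call and 1 gained it. Depth limits Acod1 in EC and Vnn1 in PMAC, at 0 to 14 reads.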

Other observations

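The 5 genes nearest to Vnn3 in the PMAC profile went both ways in endothelial cells with chylomicrons. Vnn3 was higher there, at 2.81 on the log2 scale. Cxcl1 rose by 2.84 (adjusted p = 1.21e-08, limma), from 2139 ± 59.7 to 15576 ± 3157 normalized counts. Nrg1, a growth factor of the epidermal growth factor family, fell by 0.75 (adjusted p = 2.18e-04), Ctla2a fell by 0.56 (adjusted p = 0.00456) and Il1a fell by 1.56 (adjusted p = 0.0128, from 3.23e-04 to 0.108 over 15 settings), from a mean of 114 ± 16.4 normalized counts. Cish, at 0.17, did not pass (adjusted p = 0.600). Of the genes nearest to Acod1, Csf3r was at 0 in all EC control and chylomicron libraries, Zwint had a change of 0.05 (adjusted p = 0.790), and Rdh11 rose by 0.47 (adjusted p = 0.0124, from 7.59e-04 to 0.115). Differences between the cell types were not tested.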
